A study of Mus musculus with 6 samples.

Results

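The genes described are 10 genes of inhibin, activin and anti-Müllerian hormone (AMH) signalling, named by symbol: Inha, Inhba, Inhbb, Fst, Amh, Amhr2, Acvr1, Acvr2a, Acvr2b and Bmpr1b. All 10 of them were measured, each by 1 probe, among 17742 named genes on the arrays. The study hybridised RNA from female BALB/c mice to 6 arrays of 26423 probes, to ask how Sheng-Hua-Tang (SHT), a herbal decoction, acts on the female reproductive system. The groups were brain, ovary and uterus of mice given SHT orally for 7 days (200 mg/kg), each beside the same tissue of untreated mice (mock). All groups shared strain and sex, and nothing used here gives their age, any pooling, or whether tissues came from the same mice. Each group held 1 array, which leaves differences between 2 arrays without a replicate check and limits how precise any value is.

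Inhibins and activins are secreted dimers of the TGF-beta family. An alpha chain paired with a beta chain makes inhibin, which lowers the release of follicle-stimulating hormone from the pituitary, and paired beta chains make activin, which raises it. AMH is made by the granulosa cells of growing follicles and restrains the recruitment of further follicles. These hormones act through pairs of serine/threonine kinase receptors, called type I and type II, which phosphorylate Smad proteins, and follistatin binds activin and blocks it.

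Tissue markers did not match the labels on 4 of the 6 arrays, by lists that hold none of the 10 genes. By the highest of 3 marker scores, the arrays labelled SHT ovary and mock brain had a brain profile, those labelled SHT brain and mock uterus an ovary profile, and those labelled SHT uterus and mock ovary a uterus profile. A profile names the nearest of these 3 tissues and no other, and the squamous markers were above background in 8 of 8 genes on both arrays of uterus profile. The array labelled SHT brain also had a uterus score above 0, 0.72 beside 2.80 for ovary. Of 9 measured uterus markers, 8 were above background on it, against 6 on mock uterus and 5 on each array of brain profile. Arrays are named by their labels below, no array was moved to another group, and no difference is assigned to a tissue or to SHT. A reading is called above background where it passed the 95th percentile of readings from 529 olfactory receptor genes on the same array. That value was highest on the arrays of brain profile, at 541 on mock brain and 403 on SHT ovary. On the other 4 arrays it lay between 275 and 318 intensity units. In bulk tissue, fewer cells of a type and less RNA per cell cannot be told apart.

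Of the 60 readings of the 10 genes, 34 were above background. Acvr1, Acvr2a and Acvr2b were above it on all 6 arrays, and Amh and Bmpr1b on none. Inha, Inhba, Inhbb, Fst and Amhr2 were above it on some arrays. Over all 17742 genes, 36.5% were above it on all 6 arrays, 29.5% on some and 34.0% on none. Inha, Inhba, Fst and Amhr2 had their 2 highest readings on the arrays labelled SHT brain and mock uterus, which makes 4 of the 8 genes that were above background anywhere. That pattern was met by 15.5% of all 11704 genes above background on at least 1 array. Amh had its 2 highest readings there too, but below background. The plot of intensities shows these levels gene by gene.

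**Figure D1:**
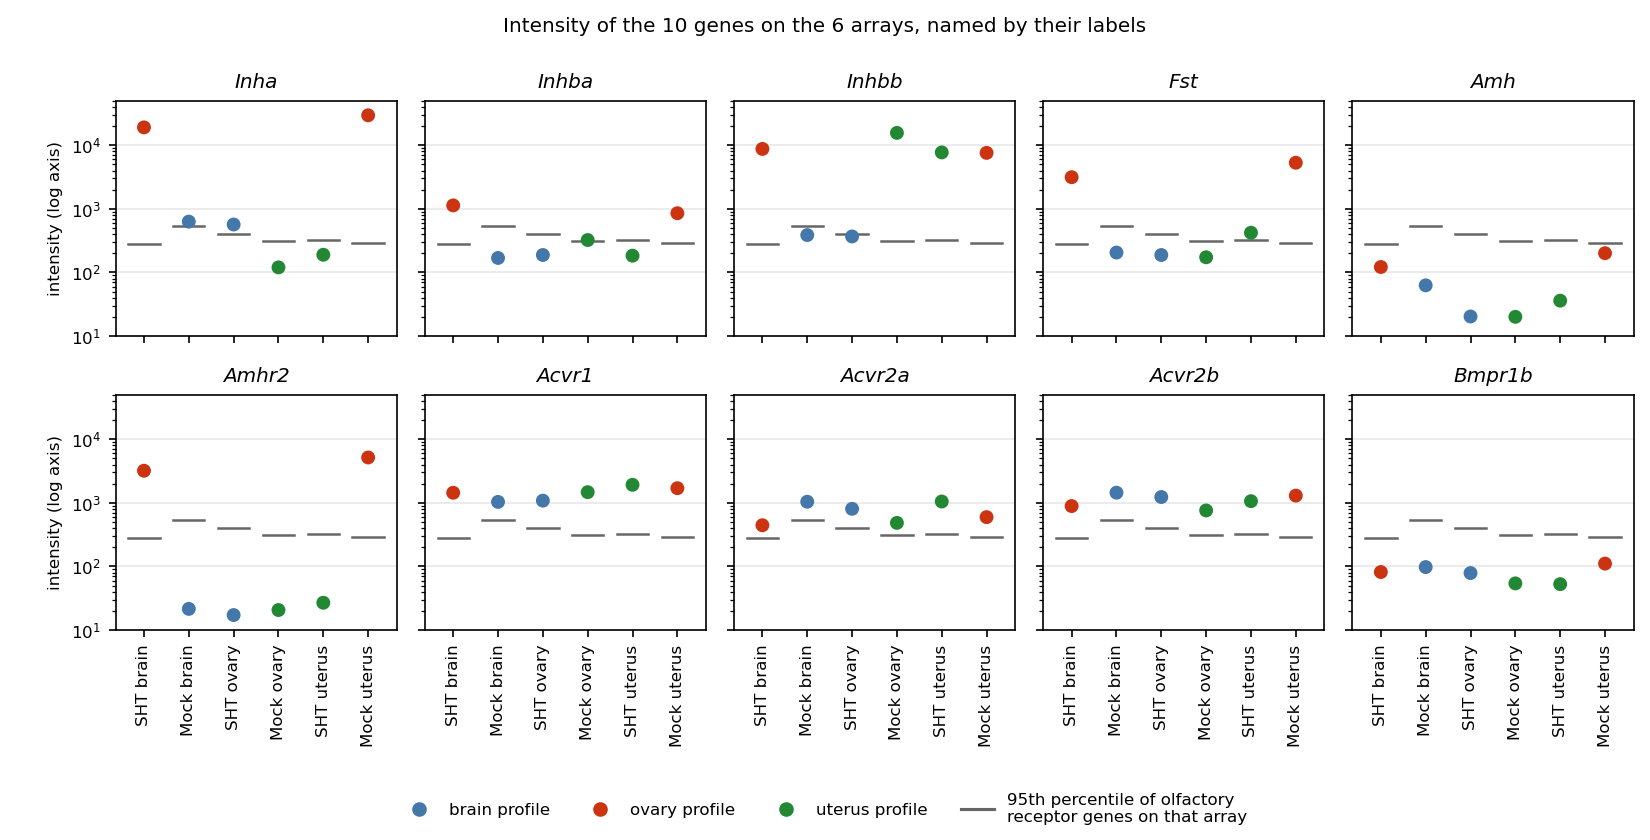
Intensity of each of the 10 genes (log axis) on the 6 arrays, 1 point an array, coloured by the tissue profile of its markers, with a grey bar at the background level of that array. Inha, Fst and Amhr2 stand high on the arrays labelled SHT brain and mock uterus, Inhbb stands high on 4 arrays, and Acvr1, Acvr2a and Acvr2b stay above the bar on all 6.

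Inha encodes the alpha chain, the chain that sets inhibin apart from activin. Its intensity was 19107 on the array labelled SHT brain against 629 on mock brain, 567 on SHT ovary against 119.9 on mock ovary, and 189.6 on SHT uterus against 29563 on mock uterus. The 2 arrays of ovary profile were thus far above the rest, the 2 of brain profile lay just above background, and the 2 of uterus profile lay below it.

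Amhr2 encodes the type II receptor of AMH, a receptor with no other established ligand. It read 3199 on the array labelled SHT brain against 21.5 on mock brain, 17.2 on SHT ovary against 20.6 on mock ovary, and 26.8 on SHT uterus against 5166 on mock uterus. The other 4 readings were even below the median of the olfactory receptor genes on their arrays, which was 29.0 to 40.7.

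The promoters of Inha and Amhr2 are shown because these genes moved together across the arrays, and that of Inhbb because it did not follow them. They are RefSeq windows of GRCm38.p6, from 250 bases before to 50 after the annotated start, printed in the direction of the gene with motif matches in capitals. Of the 10 genes, 8 had a window in the table of 32851 windows, and Fst and Amh did not.
Inha (chr1:75507359-75507658, plus strand): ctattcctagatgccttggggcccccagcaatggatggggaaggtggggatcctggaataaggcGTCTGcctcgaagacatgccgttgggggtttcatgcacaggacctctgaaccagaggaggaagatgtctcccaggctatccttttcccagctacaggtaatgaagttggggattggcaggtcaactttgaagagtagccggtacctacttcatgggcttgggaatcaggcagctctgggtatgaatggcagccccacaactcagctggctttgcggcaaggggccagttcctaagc
Amhr2 (chr15:102445117-102445416, plus strand): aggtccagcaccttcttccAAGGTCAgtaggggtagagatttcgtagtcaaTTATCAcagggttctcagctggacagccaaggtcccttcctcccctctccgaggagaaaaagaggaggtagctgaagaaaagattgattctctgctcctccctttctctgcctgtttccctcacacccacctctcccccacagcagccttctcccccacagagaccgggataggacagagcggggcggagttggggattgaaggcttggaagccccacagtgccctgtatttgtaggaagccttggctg
Inhbb (chr1:119422199-119422498, minus strand): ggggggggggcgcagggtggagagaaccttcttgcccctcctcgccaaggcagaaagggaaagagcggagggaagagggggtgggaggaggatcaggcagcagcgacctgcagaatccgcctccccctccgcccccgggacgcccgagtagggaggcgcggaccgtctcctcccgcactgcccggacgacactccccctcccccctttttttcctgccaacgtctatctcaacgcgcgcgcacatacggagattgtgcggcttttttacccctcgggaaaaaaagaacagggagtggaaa
The windows were searched on both strands for 9 letter strings. For the gonadal nuclear receptor NR5A1 these were the half-site AAGGTCA with a variant that has AAGGCCA in its place. For GATA factors they were AGATAA and also the related string TGATAA. For the response to cAMP they were TGACGTCA as well as the shorter TGACG that lies within it. For Smads they were GTCTAGAC as well as the shorter string GTCTG, which does not lie within it, and the last was the core promoter string TATAAA. The Amhr2 window held AAGGTCA at position -231 from the start, a match found in 4.72% of all windows, and TGATAA on the opposite strand with its first printed base at -199, found in 9.05%. The Inha window held GTCTG at -186, a match found in 49.6% of all windows, and the Inhbb window held none of the 9 strings. Such a match describes the letters of the window and is no binding site.

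Inhba encodes the beta A chain, shared by inhibin A and activin A. Its intensity was 1132 on the array labelled SHT brain against 169 on mock brain, 188 on SHT ovary against 323 on mock ovary, and 183 on SHT uterus against 853 on mock uterus. The arrays of ovary profile were the highest, mock ovary passed its background of 312 narrowly, and the other 3 readings were below background.

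Inhbb encodes the beta B chain of inhibin B and activin B, and apart from the ovary it is known from fat cells. It read 8751 on the array labelled SHT brain against 387 on mock brain, 368 on SHT ovary against 15644 on mock ovary, and 7714 on SHT uterus against 7586 on mock uterus. It was below background on both arrays of brain profile and high on the other 4, with the highest reading on mock ovary. Its readings on the arrays of brain profile still exceeded the background values of the other 4 arrays, 275 to 318. The 4 fat cell markers (Adipoq, Cfd, Fabp4 and Plin1) were all above background on the same 4 arrays, with summed intensities of 44087 on SHT brain against 755 on mock brain, 421 on SHT ovary against 30982 on mock ovary, and 39778 on SHT uterus against 71334 on mock uterus. Among these 4 arrays the marker sum was lowest on mock ovary, where Inhbb was highest, and highest on mock uterus, where Inhbb was lowest. The 2 lowest readings fell on the arrays of brain profile for 35.8% of the 11704 genes above background on at least 1 array. The part of fat cells in the Inhbb readings was not tested.

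Fst encodes follistatin, which binds activin in the extracellular space. Its readings were 3143 on the array labelled SHT brain against 205 on mock brain, 188 on SHT ovary against 173 on mock ovary, and 421 on SHT uterus against 5305 on mock uterus. The arrays of ovary profile were again the highest. Between the 2 arrays of uterus profile, SHT uterus was above its background of 318 and mock ovary was below its own.

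Amh, the hormone of growing follicles, stayed below background on every array. It read 122 on the array labelled SHT brain against 62.6 on mock brain, 20.3 on SHT ovary against 20.02 on mock ovary, and 36.0 on SHT uterus against 201 on mock uterus. The largest reading was under the 295 that marked background on that array, so at this sensitivity no level of Amh can be told from background.

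The type I receptor gene Acvr1, whose product serves activins, BMPs and AMH, varied little. Its intensity was 1439 on the array labelled SHT brain against 1034 on mock brain, 1082 on SHT ovary against 1471 on mock ovary, and 1921 on SHT uterus against 1698 on mock uterus. Both arrays of brain profile were the lowest. That held for 2 of the 8 genes above background anywhere, Acvr1 and Inhbb, and for 35.8% of the 11704. Bmpr1b, another type I receptor gene of the BMP and AMH branch, was below background throughout, with readings from 52.7 on SHT uterus to 111 on mock uterus.

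Acvr2a and Acvr2b encode the type II receptors of activin. Acvr2a read 444 on the array labelled SHT brain against 1041 on mock brain, 805 on SHT ovary against 484 on mock ovary, and 1049 on SHT uterus against 596 on mock uterus. Acvr2b read 889.8 on SHT brain against 1444 on mock brain, 1234 on SHT ovary against 759 on mock ovary, and 1062 on SHT uterus against 1299 on mock uterus. No profile held both of the highest readings for either gene. Their log2 ranges were 1.24 for Acvr2a and 0.93 for Acvr2b, with 0.89 for Acvr1, all under the median range of 1.70 over the 11704 genes. The histogram of ranges shows them beside the genes that were above background on some arrays only, whose lowest reading was below background.

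**Figure D2:**
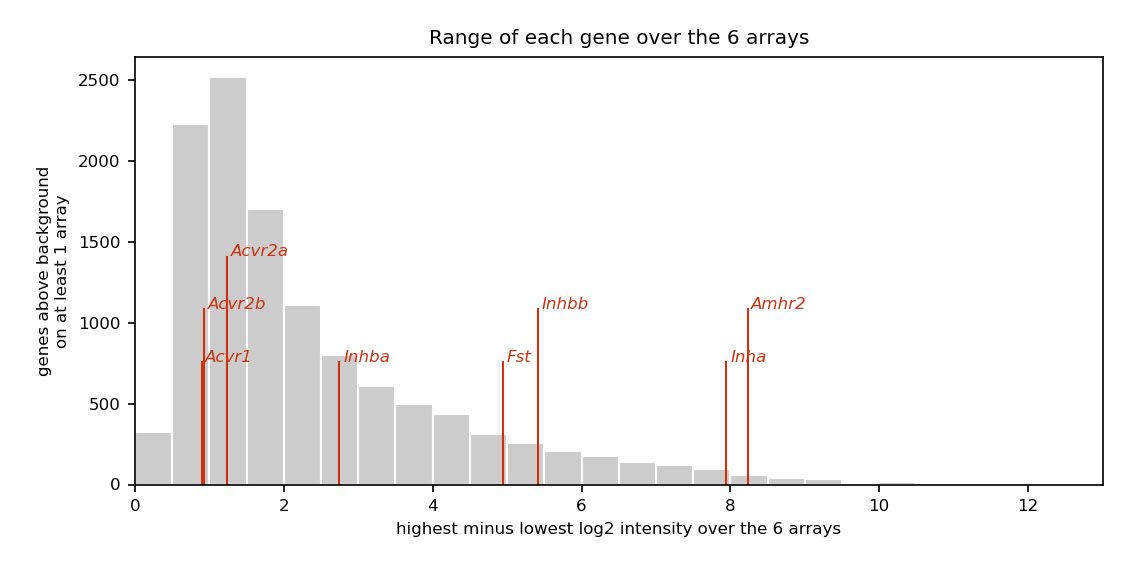
Histogram of the difference between the highest and lowest log2 intensity over the 6 arrays, for the 11704 genes above background on at least 1 array, with red lines at the 8 described genes among them. Acvr1, Acvr2a and Acvr2b lie between 0.89 and 1.24, below the median of 1.70, while the ranges of Inha, Inhba, Inhbb, Fst and Amhr2 are taken from a lowest reading below background and do not measure a fold.

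The comparison of SHT with mock in the pair labelled brain set an array of ovary profile against one of brain profile. The genes of both inhibin chain types, Fst and Amhr2 were higher on the array labelled SHT brain, and Acvr2a was lower. Folds are given relative to the median gene of the pair, and as lower bounds where 1 array was below background, against that array's background. Genes are counted as 2-fold apart by the readings themselves, over all genes too, so a counted gene can have a lower bound under 2-fold. Inha was 32.9-fold higher, Inhbb at least 17.5-fold, Amhr2 at least 6.41-fold, Fst at least 6.30-fold and Inhba at least 2.27-fold. Acvr2a was 2.16-fold lower, and Acvr1 (1.51-fold higher) and Acvr2b (1.497-fold lower) differed less than 2-fold. Of the 8 genes whose mean over the pair was above that of the median probe, 6 thus differed at least 2-fold, 5 higher and 1 lower, with a median log2 difference of 3.46. Among all 10740 genes above that level 46.6% differed as much, 24.8% higher and 21.8% lower, with a median of 0.08.

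In the pair labelled ovary, an array of brain profile was set against one of uterus profile. Inhbb was at least 42.5-fold lower on the array labelled SHT ovary, and Inha was at least 1.66-fold higher, or 4.32-fold by the readings themselves. Inhba had a log2 difference of -0.91, with SHT ovary below background. Acvr2a was 1.52-fold higher, Acvr2b 1.49-fold higher and Acvr1 1.49-fold lower. Fst, Amh, Amhr2 and Bmpr1b were below background on both arrays. Of 6 genes above the level, 2 differed at least 2-fold by the readings, Inha higher and Inhbb lower, against 46.6% of all 10687 genes, 23.1% higher and 23.5% lower.

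In the pair labelled uterus, an array of uterus profile was set against one of ovary profile. Inha, Inhba, Fst and Amhr2, which were higher on the SHT-labelled array in the pair labelled brain, were lower here. Inha was at least 91.8-fold lower on the array labelled SHT uterus, Amhr2 at least 16.0-fold, Fst 12.5-fold and Inhba at least 2.65-fold. Inhbb differed by 1.03-fold, Acvr1 by 1.14-fold and Acvr2b by 1.21-fold, while Acvr2a was 1.78-fold higher. Of 8 genes above the level, 4 were at least 2-fold lower and none as much higher, with a median log2 difference of -1.24. Among all 10757 genes, 8.27% were as much lower and 13.2% as much higher, with a median of 0.05. The plot of differences by pair shows the opposed directions of Inha, Inhba, Fst and Amhr2.

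**Figure D3:**
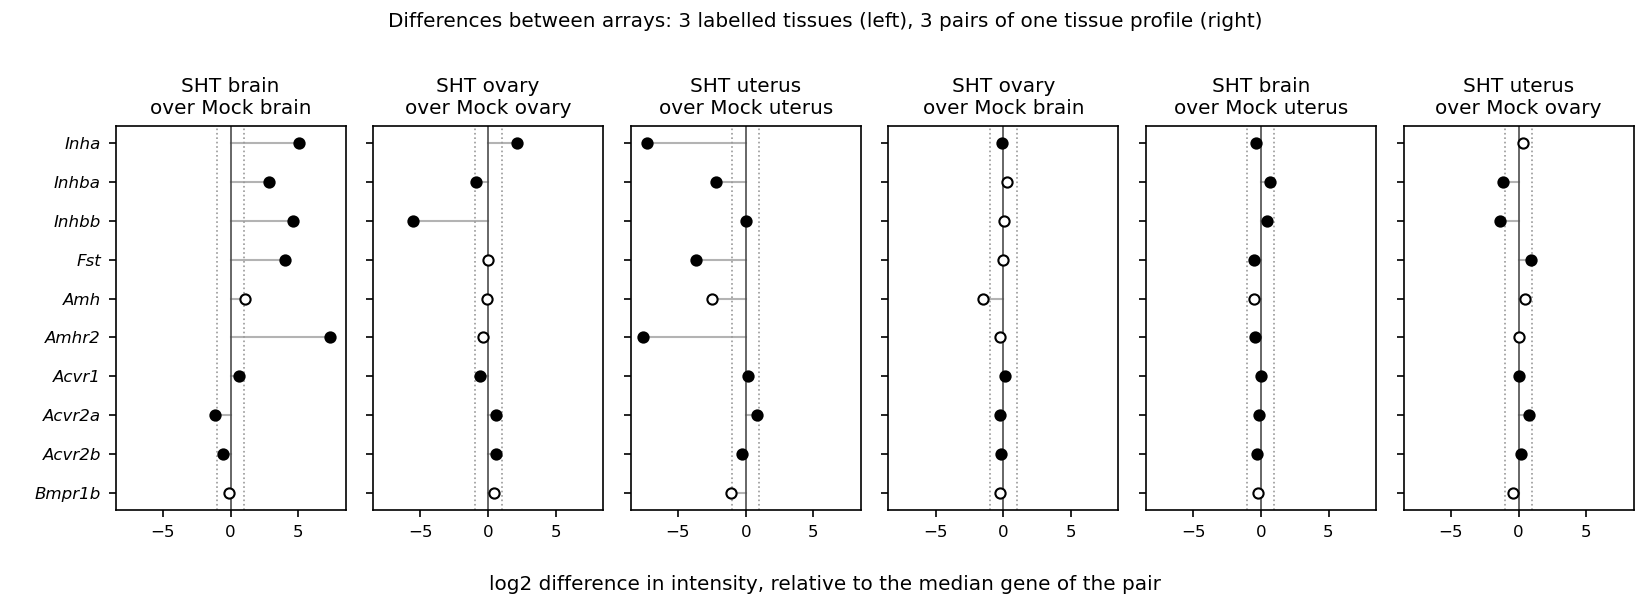
Log2 difference in intensity of the 10 genes, SHT-labelled over mock-labelled array, relative to the median gene, in the 3 labelled tissues (left) and in the 3 pairs of arrays with 1 tissue profile (right); open points were below background on both arrays and dotted lines mark 2-fold. Inha, Inhba, Fst and Amhr2 lie to the right in the pair labelled brain and to the left in the pair labelled uterus, and in the brain and ovary profiles no gene above background passes 2-fold.

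Each tissue profile was held by 1 SHT-labelled and 1 mock-labelled array, so the same genes can be read between arrays of like profile. These pairs share arrays with the pairs above. In the ovary profile, SHT brain against mock uterus, none of 8 genes above the level differed 2-fold, against 6.41% of all 10756 genes. Inha was 1.30-fold lower on SHT brain, Fst 1.42-fold lower, Amhr2 1.36-fold lower, Inhba 1.58-fold higher and Inhbb 1.37-fold higher. In the brain profile, SHT ovary against mock brain, none of 5 genes differed 2-fold, against 0.113% of 10577 genes, and Inha was 1.04-fold lower on SHT ovary.

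In the uterus profile, SHT uterus against mock ovary, 2 of 6 genes differed at least 2-fold by the readings, both lower, against 11.2% of 10680 genes, 5.07% in that direction. Inhbb was 2.56-fold lower on the array labelled SHT uterus. Inhba was at least 1.28-fold lower there, or 2.22-fold by the readings. Fst was at least 1.07-fold higher, Acvr2a 1.72-fold higher, Acvr2b 1.11-fold higher and Acvr1 1.03-fold higher. With 1 array each, these differences have no test.

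The average SHT effect over the 3 labelled tissues was fitted with limma, which gives the spread between labelled tissues and not between mice. Of the 10 genes, 7 were in the fit. Their log2 differences, SHT minus mock, ran from -0.30 for Inhbb to 0.13 for Fst, with standard errors from 0.46 for Acvr1 to 2.67 for Inha. Inha averaged 10.31 over the SHT-labelled and 10.35 over the mock-labelled arrays on the log2 scale. None passed an adjusted p of 0.05 (limma, Benjamini-Hochberg, smallest adjusted p 0.99996), and 0 of all 10754 genes (0%) did, with 4 (0.0372%) at an unadjusted p under 0.05. Amh, Amhr2 and Bmpr1b had means too low to enter the fit. The mismatch of labels and profiles lies inside this spread, and leaving out the arrays in doubt leaves no labelled pair to fit.

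Many markers of ovary and oviduct cells moved with Inha, Fst and Amhr2. The granulosa, theca and luteal and oocyte lists set the ovary profile, so their levels there are a description, and the oviduct list did not enter it. The 7 measured granulosa markers were all above background on the arrays labelled SHT brain and mock uterus, and 2 to 4 of them were on the other arrays. Their summed intensity was 98654 on SHT brain and 132246 on mock uterus, and 42977 to 60511 elsewhere. Most of the sum of 44187 on mock brain came from Gja1 (22822) and Serpine2 (20725), while Hsd17b1 read 69.6 there. The 4 measured theca and luteal markers summed to 96132 on SHT brain and 115030 on mock uterus, and to 543 to 918 elsewhere. The 8 oocyte markers summed to 16592 and 31258 on SHT brain and mock uterus, against 1175 to 1533. The 5 oviduct markers moved with them, at 28304 and 37248 against 236 to 991, and none of these was above background on the other 4 arrays. How much of any reading each cell type gives was not tested.

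A fixed list of transcription factors, most but not all of them known from granulosa cells, largely followed the same arrays. All 10 genes of the list were above background on at least 1 array, while 34.0% of all genes were above it on none. Of the 10, 8 had their 2 highest readings on the arrays labelled SHT brain and mock uterus (15.5% of the 11704 genes did). Runx1 and Sox9 were the exceptions, and 3 of the 8 (Foxl2, Nr5a2 and Wt1) also entered the ovary profile. Foxl2, which maintains granulosa identity, read 12312 on SHT brain against 249.8 on mock brain, 246 on SHT ovary against 3641 on mock ovary, and 3942 on SHT uterus against 21556 on mock uterus. Its second probe read 11.1 to 185 and was below background throughout. Nr5a1, the factor that binds the AAGGTCA half-site, read 2174 on SHT brain and 3495 on mock uterus, and was below background on the other 4 arrays. Wt1 was above background on the 2 arrays of uterus profile as well, with 3030 on SHT uterus and 1212 on mock ovary. In the pair labelled brain, 9 of 10 were at least 2-fold higher on the SHT-labelled array by the readings, against 24.8% of all genes above the level. In the pair labelled uterus 7 of 10 were at least 2-fold lower and 1 higher, against 8.27% lower and 13.2% higher over all genes.

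The other receptors and coreceptors did not follow Inha. Of 10 measured genes, 7 were above background on at least 1 array and 3 on none, against 34.0% of all genes on none. Of these 7, 5 had their 2 lowest readings on the arrays of brain profile, against 35.8% of the 11704 genes, among them Tgfbr3, Tgfbr2 and Bmpr1a, and none had its 2 highest on SHT brain and mock uterus. Tgfbr3 encodes betaglycan, the coreceptor that lets inhibin occupy activin receptors. It read 8415 on the array labelled SHT brain against 1091 on mock brain, 989 on SHT ovary against 12093 on mock ovary, and 12588 on SHT uterus against 9712 on mock uterus. Bmpr1a, a type I receptor gene of the BMP and AMH branch, read 1870 on SHT brain against 788 on mock brain, 698 on SHT ovary against 1558 on mock ovary, and 2698 on SHT uterus against 2099 on mock uterus. Acvr1b, the main type I activin receptor gene, read 446 on SHT brain against 766 on mock brain, and was below background on the 2 arrays labelled mock ovary and mock uterus.

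The Smads carry the signal to the nucleus, Smad2 and Smad3 for activin, Smad1, Smad5 and Smad9 for BMP and AMH, with Smad4 as the shared partner and Smad6 and Smad7 as inhibitors. Of 8, 5 were above background on all 6 arrays, against 36.5% of all genes, and Smad9 was above it on none. In the pair labelled uterus 0 of 7 above the level differed 2-fold, against 21.4% of all genes. Between the arrays labelled brain, 3 of 7 were counted as 2-fold higher, against 24.8% of all genes (Smad5 by 2.72-fold, Smad6 by at least 1.19-fold and Smad7 by at least 1.22-fold). Between those labelled ovary, 1 of 7 was counted higher and 2 lower, against 23.1% and 23.5%. Smad3 was 2.57-fold higher and Smad5 2.05-fold lower, with Smad6 at least 1.14-fold lower. The other Smad5 probe read 662 on SHT ovary against 1099 on mock ovary, less than 2-fold apart. Smad6 had its 2 highest readings on the arrays labelled SHT brain (594) and mock uterus (656). The heat map shows that these genes varied less across the arrays than Inha and Amhr2.

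**Figure D4:**
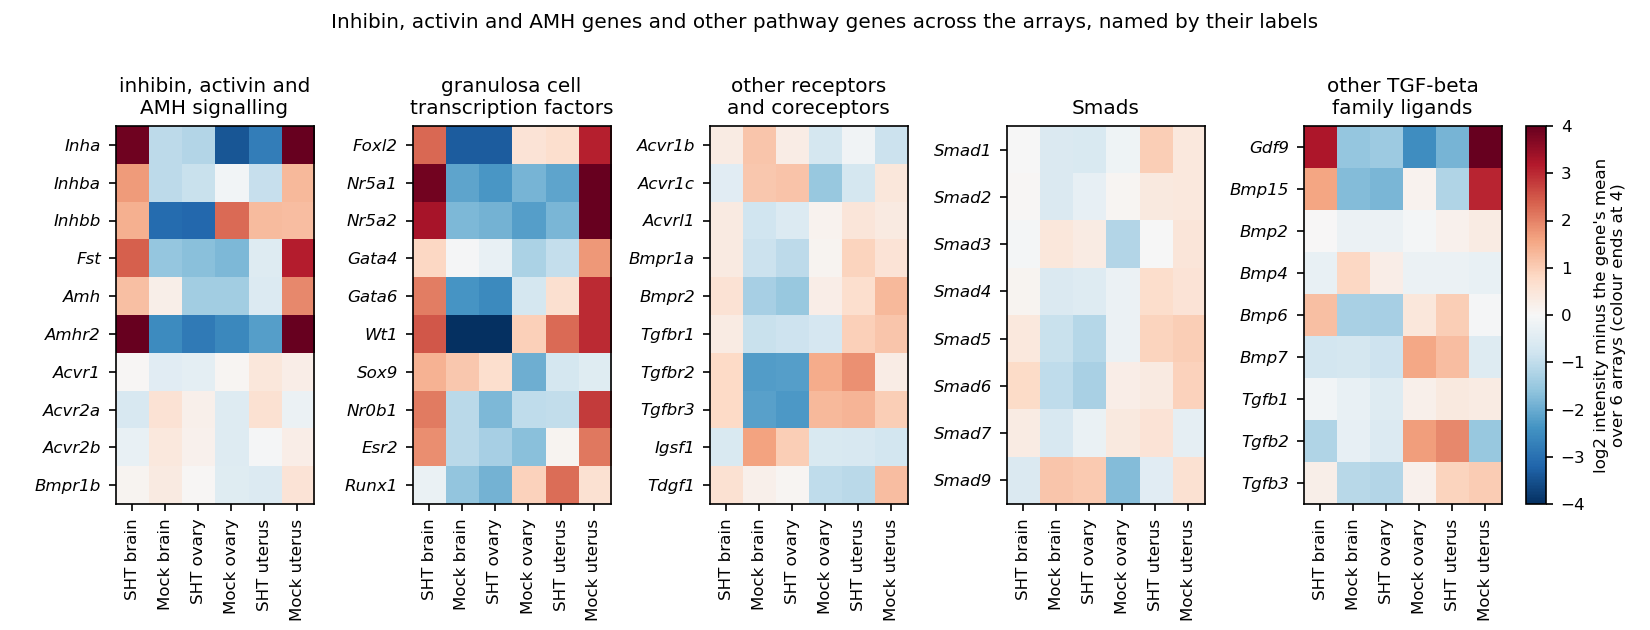
Log2 intensity minus each gene's mean over the 6 arrays (colour, ending at 4 in each direction), for the 10 described genes and 4 lists of other pathway genes, in columns of arrays named by their labels. Inha, Amhr2, Nr5a1, Nr5a2 and Gdf9 are dark red on the arrays labelled SHT brain and mock uterus, and the Smads are pale throughout.

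Among other TGF-beta family ligands, Gdf9 and Bmp15, both made by the oocyte and both used for the ovary profile, were above background on the arrays labelled SHT brain and mock uterus and on no other. Gdf9 read 5620 on SHT brain and 10369.9 on mock uterus, with 106 to 217 elsewhere, and Bmp15 read 348 and 966 with 32.8 to 127 elsewhere. The remaining 7 were not ordered in this way. Tgfb2 read 566 on SHT brain against 1043 on mock brain, 883 on SHT ovary against 4138 on mock ovary, and 4876 on SHT uterus against 458 on mock uterus, so the 2 arrays of uterus profile were the highest. Inhbe, a further activin chain gene known from liver, read 5225 on SHT brain against 235 on mock brain, 171 on SHT ovary against 1579 on mock ovary, and 4691 on SHT uterus against 1859 on mock uterus, and was below background on both arrays of brain profile.

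Of the inhibitors, Fstl3, a relative of follistatin that also binds activin, had its 2 highest readings on the arrays of uterus profile. It read 692 on SHT brain against 211 on mock brain, 172 on SHT ovary against 2701 on mock ovary, and 1454 on SHT uterus against 817 on mock uterus. Fst and Fstl3 thus peaked on different arrays. The share of all genes highest on the arrays of uterus profile is not given here. Over the 61 measured genes of all these lists, 50 were above the level in the pair labelled brain, of which 27 were at least 2-fold higher and 7 lower by the readings, against 24.8% and 21.8% of all genes. The pair labelled ovary had 6 of 45 higher and 18 lower, against 23.1% and 23.5%. The pair labelled uterus had 10 of 48 higher and 10 lower, against 13.2% and 8.27%.

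The genes most like Inha, Amhr2 and Fst over the 6 arrays were taken from 3016 genes with a log2 range of at least 3. The arrays share their tissue makeup, so these correlations describe the arrays and carry no p. For Inha, Cnmd, 1600029I14Rik, Pifo, Plekhg4, Ak7 and Tmem212 came closest, with Pearson r of 0.996 to 0.999, and 209 genes had r over 0.9. For Amhr2 they were H1f8, Nlrp14, Nr5a1, Khdc3, Ooep and Oosp1 (0.998 to 0.999), and for Fst they were Cfap126, Hoxc9, Rmdn2, Pkdcc, Msln and Tex14 (0.996 to 0.999). Among the described genes, Amhr2 correlated with Fst at 0.98 and with Inha at 0.96, and Inhbb correlated with Inha at 0.16.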

How the data were processed

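The values are the authors' deposited table of linear intensity for 26423 probes on 6 arrays, hybridised with Cy5-labelled amplified RNA per the labels' protocols. Per the submitters' processing notes limma was used, with no version or role given; no source used here states how background was corrected or arrays were scaled. Array medians of intensity lay between 179 and 224, and 20 to 30 values per array were at or below 0. Groups were taken from the titles.

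Of the probes, 20377 carried 1 symbol, 0 several and 6046 none; 18213 symbols were current in RefSeq (GRCm38.p6), 2126 were synonyms and 38 were kept. The brightest probe on average stood for each of the 2278 genes with several. Values under the 5th percentile of an array's positive values (5.66 to 6.66) were raised to it, and log2 was taken without scaling. Pair differences were taken relative to the median gene (-0.12, 0.13 and -0.02 for the pairs labelled brain, ovary and uterus, -0.09, -0.25 and 0.34 for the brain, ovary and uterus profiles) and counted at 2-fold among genes whose pair mean passed the median of pair means over all probes. With 1 array a group there was no test within a tissue. limma 3.58.1 (R 4.3.3) fitted the SHT effect averaged over labelled tissues (labelled tissue as a block, eBayes with a trend, two-sided). The script was tested on simulated data that paired like tissues, with the noise of the 2 most alike arrays. That test does not show what effect the fit of these data could detect. A marker score was the mean log2 intensity of a list minus its mean over the arrays. Beside the 10 genes, the rule named up to 4 genes of each fixed list with the highest intensity, those a result turned on, and the 6 with the highest correlation; others were named after their values were seen. Counts of genes with their 2 highest or 2 lowest readings on a pair of arrays were added after the values were seen, for 6 patterns (3 tissue profiles, 2 directions), and the promoters printed were also chosen then. The members, lists, tests and alternatives were chosen with earlier results of these data known. Some genes of the fixed lists were not analysed here.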

Additional observations from a re-analysis of the deposited data

Results flagged for a closer look

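By the readings themselves, several of the genes differed 2-fold in opposite directions in 2 labelled tissues, SHT against mock, relative to the median gene. The log2 differences below are of readings, and many were taken against an array below background, where the reading gives no exact fold. With 1 array a group the difference between tissues was not tested, and each pair set together arrays of 2 different tissue profiles.

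Between the pairs labelled brain and uterus, the log2 difference was 5.04 and -7.27 for Inha, 2.86 and -2.20 for Inhba, 4.05 and -3.64 for Fst, and 7.34 and -7.57 for Amhr2. Of these, Inha and Fst were above background on both arrays of 1 pair each (brain for Inha, uterus for Fst). The lower bounds in the pairs labelled brain and uterus were 2.27-fold higher and 2.65-fold lower for Inhba, and 6.41-fold higher and 16.0-fold lower for Amhr2. Those of Inha in the pair labelled uterus and Fst in the pair labelled brain were 91.8-fold lower and 6.30-fold higher. Between the pairs labelled ovary and uterus the log2 difference was 2.11 and -7.27 for Inha, with a lower bound of only 1.66-fold in the pair labelled ovary. Between the pairs labelled brain and ovary it was 4.62 and -5.54 for Inhbb, with lower bounds of 17.5-fold higher and 42.5-fold lower. Within the ovary profile, SHT brain against mock uterus, the same log2 differences were -0.38 for Inha, 0.66 for Inhba, 0.45 for Inhbb, -0.51 for Fst and -0.44 for Amhr2.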

How the results depend on the processing

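Quantile normalization kept every direction of the 2-fold differences of the 10 genes, as did raising values to the olfactory receptor median. The other alternatives for the pairs could not test this. Differences were already relative to the median gene, so centring changed none. Each of the 10 genes has 1 probe, so the mean of probes could act only through the median gene. A changed threshold or level floor leaves the differences as they were. A 3-fold threshold gave 3126 genes in the pair labelled brain, 1297 in that labelled uterus, and 5, 315 and 434 in the brain, ovary and uterus profiles, with 0 of the 10 genes in the last. The level floor at the 75th percentile gave 2454, 2466 and 902 genes in the pairs labelled brain, ovary and uterus, with 2, 1 and 2 of the 10 genes, and 3, 288 and 497 in the brain, ovary and uterus profiles, with 1 of the 10 in the last; fewer genes were tested there. The floor at the 25th percentile gave 40 genes in the brain profile. At that floor Amh was also counted in the pairs labelled brain and uterus, and Bmpr1b in that labelled uterus, from readings below background. That made 7 and 6 of the 10 genes 2-fold apart in the pairs labelled brain and uterus. Acvr2a in the pair labelled brain fell under 2-fold, at a log2 difference of -0.90, with values raised to the olfactory receptor median, and Inhba in the pair labelled ovary passed it at -1.04. With that median as background, 54 of the 60 readings were above it. The limma fit gave 0 genes under every alternative, with 3 to 5 at an unadjusted p under 0.05, or 128 without the pair labelled brain and 461 without that labelled ovary. The limma fit pairs SHT with mock by labelled tissue. No paired analysis was possible by replicate number because each group holds 1 array.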

Other observations

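Fshb, the chain of follicle-stimulating hormone whose pituitary release inhibin lowers, passed background on the 2 arrays of brain profile, on mock brain only narrowly. It read 482 on the array labelled SHT ovary against a background of 403, and 555 on mock brain against 541. On the other 4 arrays it read 169.7 to 223. Its partner chain gene Cga and Lhb were below background on all 6 arrays, as were Gnrh1 and Gnrhr.

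The proprotein convertases cut the precursors of TGF-beta family ligands. Furin read 1439 on the array labelled SHT brain against 3174 on mock brain, 3056 on SHT ovary against 977 on mock ovary, and 1779 on SHT uterus against 1684 on mock uterus. Pcsk5 had its 2 highest readings on the arrays labelled SHT brain (541) and mock uterus (1161), and its other 2 probes read 10.4 to 25.2 and 5.67 to 68.6 over the arrays. Pcsk6 ran from 915 on mock brain to 7794 on mock ovary.

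Of the list of Smad target genes, all 7 measured were above background on all 6 arrays, against 36.5% of all genes. Id1 was highest on the arrays of uterus profile (14902 on SHT uterus and 17699 on mock ovary), and Id3 on those of ovary profile (14969.8 on SHT brain and 19004 on mock uterus). Id2 and Id4 had their 2 highest readings on the arrays of brain profile. They read 12837 and 3485 on SHT ovary, and 12694 and 3432 on mock brain. The shares of all genes highest on the arrays of brain or uterus profile are not given here.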
